A study of Mus musculus with 9 samples.

Results

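Circadian clock genes were examined in 9 oral tumors of mice. They comprised 10 listed core genes, Per1, Per2, Per3, Cry1, Cry2, Arntl (Bmal1), Clock, Nr1d1, Nr1d2 and Dbp, out of 18193 genes with a single symbol on the array. They were taken with all 23 of their probe sets, out of 45101 on the array. The list was chosen by the measured signal of Per2, which had separated the p53 genotypes in these same tumors, and the question was whether the other clock genes follow Per2. The Per2 difference between genotypes is therefore given as a description, with no test.

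Each tumor was hybridised to 1 Affymetrix array, and there were 3 tumors in each of 3 genotype groups. In the p53R172H/- group a missense allele, p53R172H, was paired with a null allele, and in the p53R172H/+ group with a wild-type one. The p53-/- tumors, the group both were set against, had lost p53. All mice were 1 year old, and the series title attributes the tumors of every group to activated Ras. The strain names begin with K-, which the labels do not explain, and the sources used here do not say which promoter or cell type drives the alleles. No label states that each tumor had its own mouse, so the p-values cover only the scatter among these samples, which may in part be technical. They also give no hour of collection. The 9 array medians ran from 109 to 123 signal units. Keratinocyte markers were bright in all 9 tumors, with 11 of 11 measured markers over the filter on dim genes (113 signal units) and a list mean of 12.94 to 13.12 on the log2 scale. In bulk tumor RNA, fewer cells of a type and less RNA per cell cannot be told apart.

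The circadian clock of mammalian cells is a transcriptional feedback loop. CLOCK and BMAL1, the product of Arntl, bind E-boxes and switch on Per, Cry, Nr1d1, Nr1d2 and Dbp, and PER and CRY proteins then repress CLOCK and BMAL1. The Nr1d genes encode the REV-ERB repressors, which hold down Arntl through ROR elements, while DBP activates genes through D-boxes. In most rhythmic tissues Arntl transcripts peak roughly opposite to those of Per2 and Dbp, so a sample's place in the daily cycle shows in the balance of these arms.

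Promoter windows of the members were taken from RefSeq (build GRCm38.p6), from 250 bases before to 50 bases after the gene start. Such windows were found for 9 of the 10 members, 13 windows in all, and none is shown for Per2. Both strands were searched for the E-box CACGTG, the D-box TTANGTAA, the ROR element NTAGGTCA and the cAMP response element TGACGTCA, and no match overlapped another. The 4 windows with a match are shown because they carry the letters through which the loop's arms are known to act, and that of Dbp because Dbp differed most between genotypes. Matches are in capitals, the rest in lower case, and each line runs 5′ to 3′ on the gene's own strand. Per1 lies on the plus strand (chr11:69098699-69098998) and its E-box starts 166 bases before the gene start. Per3 is on the minus strand (chr4:151044616-151044915) and has 2 D-boxes, starting 205 and 158 bases before the gene start. Cry1 is on the minus strand (chr10:85185005-85185304), with an E-box starting 60 bases before the gene start. Arntl is on the plus strand (chr7:113207261-113207560), and its ROR element starts at base 30 after the gene start. Dbp is on the plus strand (chr7:45704997-45705296) and held none of the 4 motifs in this window.
Per1: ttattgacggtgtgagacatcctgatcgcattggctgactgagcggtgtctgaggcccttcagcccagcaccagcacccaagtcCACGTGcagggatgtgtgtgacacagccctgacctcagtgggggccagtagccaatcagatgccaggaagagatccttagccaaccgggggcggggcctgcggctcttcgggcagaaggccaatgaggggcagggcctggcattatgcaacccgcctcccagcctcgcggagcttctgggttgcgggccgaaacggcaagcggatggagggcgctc
Per3: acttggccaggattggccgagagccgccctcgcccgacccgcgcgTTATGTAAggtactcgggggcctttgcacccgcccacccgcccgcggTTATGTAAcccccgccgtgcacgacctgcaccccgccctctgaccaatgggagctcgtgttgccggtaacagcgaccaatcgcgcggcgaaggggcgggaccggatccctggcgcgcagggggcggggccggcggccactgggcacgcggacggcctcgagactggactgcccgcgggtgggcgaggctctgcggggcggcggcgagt
Cry1: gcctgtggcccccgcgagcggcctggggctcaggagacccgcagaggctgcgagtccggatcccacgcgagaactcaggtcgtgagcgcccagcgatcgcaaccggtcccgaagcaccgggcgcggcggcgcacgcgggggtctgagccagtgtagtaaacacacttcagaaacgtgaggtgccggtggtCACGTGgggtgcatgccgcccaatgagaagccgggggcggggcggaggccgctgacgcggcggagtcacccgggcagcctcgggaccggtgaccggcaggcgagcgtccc
Arntl: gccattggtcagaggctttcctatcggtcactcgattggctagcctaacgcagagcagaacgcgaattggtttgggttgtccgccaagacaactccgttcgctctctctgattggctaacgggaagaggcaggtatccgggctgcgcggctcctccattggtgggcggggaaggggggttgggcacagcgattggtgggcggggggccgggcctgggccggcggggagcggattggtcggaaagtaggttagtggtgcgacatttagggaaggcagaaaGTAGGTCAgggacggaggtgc
Dbp: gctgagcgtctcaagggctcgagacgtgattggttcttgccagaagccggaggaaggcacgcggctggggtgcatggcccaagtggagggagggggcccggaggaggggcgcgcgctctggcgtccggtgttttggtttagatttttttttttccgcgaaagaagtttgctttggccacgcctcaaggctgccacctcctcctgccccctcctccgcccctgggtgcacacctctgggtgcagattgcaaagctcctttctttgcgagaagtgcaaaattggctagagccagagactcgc
Of all 32851 such windows, 7.15% held the E-box, 2.32% the D-box, 2.59% the ROR element and 1.79% the cAMP response element. At least 2 D-boxes, as in Per3, were held by 0.0822% of windows. A match is a run of letters in this window only, and factor binding was not measured.

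Most clock genes lay lower in both mutant groups than in p53-/- tumors, and Arntl and Clock lay higher, but no clock gene passed the adjusted threshold in any comparison. Dbp, an output transcription factor of the clock, had the largest difference, 2.28-fold lower over both mutant groups. Per1 and Cry2, which encode repressors of the loop, were lower by about as much as Per2 on its brightest probe set. The other Per2 probe sets were lower still, each at a log2 fold change of -1.07 over both mutant groups. Per3, Cry1, Nr1d1 and Clock differed little beside their spread.

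In both mutant comparisons, 7 of the 9 genes other than Per2 had a lower mean than in p53-/- tumors and 2 a higher one. Over all 12167 genes tested, 56.2% had a lower mean in p53R172H/- tumors and 56.1% in p53R172H/+ tumors. With limma and Benjamini-Hochberg adjustment over all genes, 0 clock genes passed an adjusted p of 0.05 for p53R172H/- against p53-/- tumors, 0 for p53R172H/+ against p53-/- tumors, 0 for both mutant groups against p53-/- tumors and 0 between the mutant groups. The share of all genes called was 0% in each of the 4 comparisons.

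For the 9 genes other than Per2, 3 lower and 1 higher had an unadjusted p under 0.05 in p53R172H/- against p53-/- tumors, where 9.16% of all genes were lower and 6.44% higher at that level. The 3 were Per1, Cry2 and Dbp, and the higher gene was Arntl. In p53R172H/+ against p53-/- tumors the same 3 genes were lower and none was higher, where 5.6% of all genes were lower and 4.75% higher. For both mutant groups together, Nr1d2 joined these 3, where 9.09% of all genes were lower and 6.84% higher. These comparisons share the 3 p53-/- tumors.

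The tumors of the groups did not overlap for Per1, Cry2 and Dbp in p53R172H/- against p53-/- tumors (all 3 lower) and for Arntl (higher), where 13.8% of all genes were lower without overlap and 9.11% higher. In p53R172H/+ against p53-/- tumors, Per1, Cry2 and Dbp lay lower without overlap, where 8.86% of all genes did, and 0 clock genes lay higher, where 7.08% did. Over all 6 mutant tumors against the 3 p53-/- tumors the same 3 genes were lower without overlap, where 3.94% of all genes were, and 0 were higher, where 3.34% were. The median log2 fold change of the 9 genes was -0.19 in p53R172H/- tumors, -0.27 in p53R172H/+ tumors and -0.25 over both, against -0.03 over all genes in each of these comparisons. Of the 23 probe sets, 18 had a lower mean and 5 a higher mean over both mutant groups. The 18 include all 3 of Per2, whose signal chose the list.

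**Figure D1:**
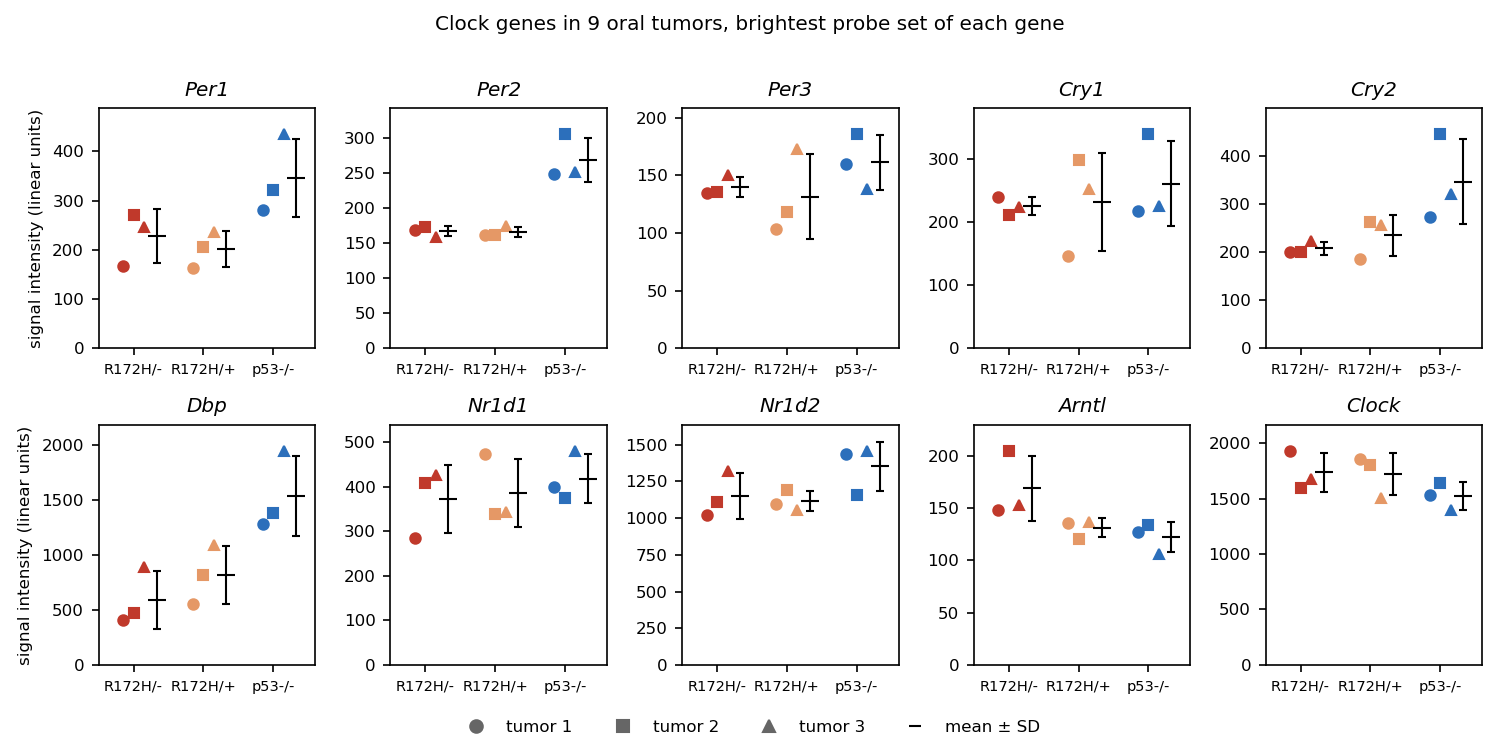
Signal of the 10 clock genes on their brightest probe set in each tumor, by genotype (signal units), with points for tumors and a bar for the group mean. Dbp, Per1, Cry2 and Per2 sit lower in all 6 mutant tumors than in any p53-/- tumor, and Arntl sits highest in the 3 p53R172H/- tumors.

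Per2, whose protein represses CLOCK and BMAL1, was at 169, 173 and 159 signal units in p53R172H/- tumors and at 161, 162 and 174 in p53R172H/+ tumors, against 248, 305 and 252 in p53-/- tumors (probe set 1457350_at). The 6 mutant tumors lay within a narrow band below every p53-/- tumor, and this separation is what chose the list. The log2 fold change was -0.68 ± 0.11 (SE) in p53R172H/- tumors and -0.69 ± 0.11 (SE) in p53R172H/+ tumors.

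The other probe sets of Per2 showed the same order of groups with a wider spread within the mutants. Probe set 1417603_at was at 111, 192 and 134 in p53R172H/- tumors and 51.6, 189 and 124 in p53R172H/+ tumors, against 291, 228 and 262 in p53-/- tumors. The dim probe set 1417602_at was at 80.5, 58.0 and 94.1 in p53R172H/- tumors and 48.6, 101 and 71.2 in p53R172H/+ tumors, against 124, 176 and 175 in p53-/- tumors. On both probe sets every mutant tumor lay below every p53-/- tumor, and the log2 fold change over both mutant groups was -1.07 on each, against -0.69 ± 0.09 (SE) on the brightest one. The narrow mutant band of the brightest probe set was thus not seen on the others.

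Per1, the period gene that also answers acute signals such as glucocorticoids, was at 168, 272 and 246 signal units in p53R172H/- tumors and at 164, 205 and 236 in p53R172H/+ tumors, against 281, 322 and 435 in p53-/- tumors. Its single probe set thus lay lower in each mutant tumor than in any p53-/- tumor. The log2 fold change was -0.61 ± 0.23 (SE) in p53R172H/- tumors (limma adjusted p = 0.277) and -0.77 ± 0.23 (SE) in p53R172H/+ tumors (limma adjusted p = 0.359). The p53R172H/- value rested partly on its dimmest tumor, since it was -0.40 without p53R172H/- tumor 1.

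Per3, the period gene that the core loop can run without, has in its window D-boxes, the motif that DBP binds. Its brightest probe set was at 135, 135 and 150.3 signal units in p53R172H/- tumors and 104, 118 and 173 in p53R172H/+ tumors, against 159.9, 186 and 138 in p53-/- tumors. All 6 of its probe sets had a lower mean over both mutant groups, with log2 fold changes from -0.30 to -0.10. The groups overlapped on each of them, except that p53R172H/- tumors lay lower without overlap on probe set 1421087_at, at 117, 85.2 and 131 signal units against 138, 157 and 136 in p53-/- tumors. The log2 fold change over both mutant groups on the brightest one was -0.25 ± 0.17 (SE, limma adjusted p = 0.455), so there Per3 did not differ beyond the spread between tumors.

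Cry2, which encodes a cryptochrome repressor, was at 200.4, 200.1 and 223 signal units in p53R172H/- tumors and 185, 262 and 256 in p53R172H/+ tumors, against 273, 444 and 319.7 in p53-/- tumors. The groups did not overlap, with p53R172H/- tumors close together and p53-/- tumor 2 high. Its log2 fold change was -0.71 ± 0.19 (SE) in p53R172H/- tumors and -0.55 ± 0.19 (SE) in p53R172H/+ tumors. Both missed the threshold, with limma adjusted p = 0.217 for p53R172H/- and 0.415 for p53R172H/+ tumors. Without p53-/- tumor 2, the p53R172H/+ value was -0.35.

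Cry1, the other cryptochrome gene and a stronger repressor in the textbook loop, was at 240.1, 211 and 224 signal units in p53R172H/- tumors and 147, 298 and 252 in p53R172H/+ tumors, against 218, 339 and 225 in p53-/- tumors. The groups overlapped throughout. Cry1, like Per1, has an E-box in the window shown above. Over both mutant groups its log2 fold change was -0.19 ± 0.22 (SE, limma adjusted p = 0.683), and it turned to 0.01 without p53-/- tumor 2.

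Dbp, which encodes an activator of D-box genes and is a direct target of CLOCK and BMAL1, differed most between genotypes. On probe set 1438211_s_at it was at 411, 469 and 894 signal units in p53R172H/- tumors and at 556.5, 814.5 and 1089.9 in p53R172H/+ tumors, against 1281.5, 1379 and 1951 in p53-/- tumors. No mutant tumor reached a p53-/- tumor, but within each group the signals were widely spread. The log2 fold change was -1.44 ± 0.33 (SE, limma adjusted p = 0.214) in p53R172H/- tumors, which was 2.71-fold lower and the 4th lowest value of 12167 genes. In p53R172H/+ tumors it was -0.93 ± 0.33 (SE, limma adjusted p = 0.413), or 1.91-fold lower.

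The second Dbp probe set gave the same order. It was at 187, 199 and 312 signal units in p53R172H/- tumors and 226, 289 and 321 in p53R172H/+ tumors, against 449.6, 383 and 653.5 in p53-/- tumors. The groups again did not overlap, and the log2 fold changes were -1.09 in p53R172H/- and -0.81 in p53R172H/+ tumors. Neither Dbp value passed the test, and the value over both mutant groups on the brighter probe set was -1.19 ± 0.28 (SE, limma adjusted p = 0.188).

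**Figure D2:**
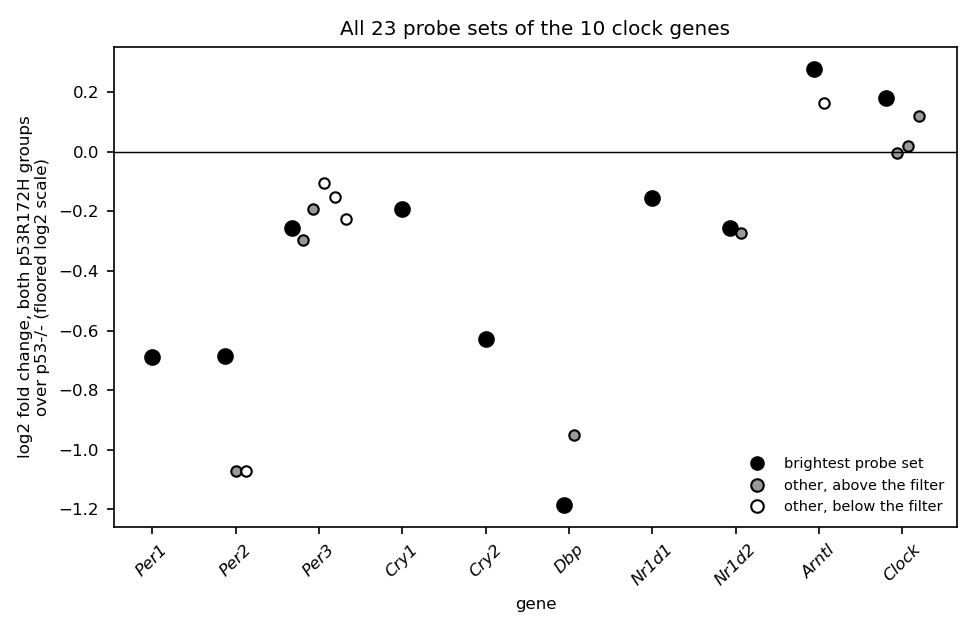
Log2 fold change of both mutant groups together against p53-/- tumors for each of the 23 clock probe sets. All 3 Per2 and both Dbp probe sets lie well below 0, while both Arntl probe sets lie above 0. The 4 Clock probe sets lie between -0.0025 and 0.18.

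Nr1d2, which encodes REV-ERB beta, was at 1019, 1111 and 1321 signal units in p53R172H/- tumors and at 1095, 1191 and 1059 in p53R172H/+ tumors, against 1439, 1161 and 1459.8 in p53-/- tumors. The mutant tumors lay below 2 of the 3 p53-/- tumors but overlapped with p53-/- tumor 2. The log2 fold change over both mutant groups was -0.25 ± 0.11 (SE, limma adjusted p = 0.303). On its dimmer probe set the p53R172H/- tumors were at 151, 151 and 166 and the p53R172H/+ tumors at 244, 158 and 272, against 163, 240.0 and 285 in p53-/- tumors. The groups overlapped there too, with log2 fold changes of -0.52 in p53R172H/- and -0.03 in p53R172H/+ tumors.

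Nr1d1, the gene of REV-ERB alpha and in many tissues the most strongly rhythmic repressor of Arntl, was at 284, 407 and 425 signal units in p53R172H/- tumors and 474, 339.7 and 343 in p53R172H/+ tumors, against 399, 375 and 481 in p53-/- tumors. The groups overlapped. Its log2 fold change over both mutant groups was -0.15 ± 0.17 (SE, limma adjusted p = 0.653), so Nr1d1 did not differ beyond the spread between tumors. Whether it differed from Dbp, another target of CLOCK and BMAL1, was not tested.

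Arntl, which encodes the activator BMAL1 and has a ROR element in the window shown above, ran the other way in p53R172H/- tumors. It was at 149, 205 and 153 signal units in p53R172H/- tumors and at 136, 121 and 137 in p53R172H/+ tumors, against 127, 134 and 106 in p53-/- tumors. Every p53R172H/- tumor lay above every other tumor, whereas the p53R172H/+ tumors overlapped with the p53-/- tumors. The log2 fold change was 0.45 ± 0.15 (SE, limma adjusted p = 0.258) in p53R172H/- tumors and 0.10 ± 0.15 (SE, limma adjusted p = 0.814) in p53R172H/+ tumors. The p53R172H/- value was 0.31 without p53R172H/- tumor 2, the tumor with the highest signal.

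Arntl's dim second probe set had the same order, at 70.8, 65.4 and 66.6 signal units in p53R172H/- tumors and 60.6, 61.0 and 56.3 in p53R172H/+ tumors, against 55.0, 55.2 and 59.3 in p53-/- tumors. Again the p53R172H/- tumors lay above all others, by a small margin on a probe set under the filter on dim signals.

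Clock, which encodes the partner of BMAL1, varied little between tumors. It was at 1931, 1596 and 1678 signal units in p53R172H/- tumors and 1859, 1799 and 1509 in p53R172H/+ tumors, against 1531.5, 1643 and 1393 in p53-/- tumors. The groups overlapped, with a log2 fold change of 0.18 ± 0.10 (SE, limma adjusted p = 0.380) over both mutant groups. Its other 3 probe sets were at -0.00 to 0.12.

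**Figure D3:**
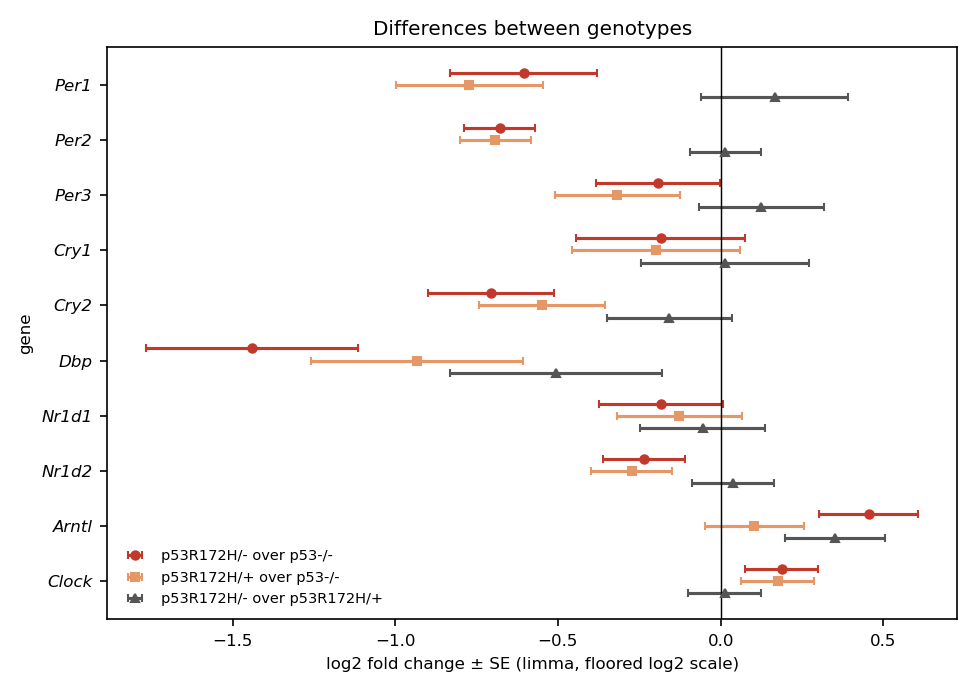
Log2 fold change with its standard error for the 10 clock genes in p53R172H/- and in p53R172H/+ tumors, each against p53-/- tumors. A further series sets p53R172H/- against p53R172H/+ tumors. Against p53-/- tumors, Dbp is lowest at -1.44 and -0.93, and Per2, Cry2 and Per1 lie between -0.77 and -0.55. Arntl (0.45 in p53R172H/- and 0.10 in p53R172H/+ tumors) and Clock (0.19 in p53R172H/- and 0.18 in p53R172H/+ tumors) lie above 0 there.

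The mutant groups, which by their labels differ in the other p53 allele, null or wild type, were also set against each other. Whether p53R172H/+ tumors kept the wild-type allele was not tested. Fibroblast markers also lay apart between these groups, as given below. The clock genes were close to level between the mutant groups, with a median log2 fold change of 0.01 over the 10 genes and -0.01 over all genes. Per2 was at 0.01 ± 0.11 (SE), given with no test. Arntl alone had an unadjusted p under 0.05 (log2 fold change 0.35 ± 0.15 SE, limma adjusted p = 0.949), where 2% of all genes were higher and 2.96% lower at that level. Arntl was also the only clock gene whose mutant groups did not overlap, where 5.27% of all genes were higher and 6.62% lower without overlap. The Arntl value was 0.20 without p53R172H/- tumor 2 and 0.23 with muscle content as a covariate. Dbp had a log2 fold change of -0.51 ± 0.33 (SE, limma adjusted p = 0.949), with overlapping tumors, and ran from -0.85 without p53R172H/- tumor 3 to -0.27 without p53R172H/+ tumor 3.

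Whether the clock genes moved together was read tumor by tumor, as deviations from each gene's mean over the 9 tumors on the log2 scale. For Per1, Per3, Nr1d1, Nr1d2 and Dbp together, the mean deviation was -0.48, -0.17 and 0.08 in p53R172H/- tumors and -0.31, -0.17 and 0.04 in p53R172H/+ tumors, against 0.24, 0.27 and 0.51 in p53-/- tumors. Every p53-/- tumor lay above every mutant tumor in this mean. The 5 genes did not all share its sign, since 5, 3 and 1 of them lay below their mean in p53R172H/- tumors 1, 2 and 3 and 4, 5 and 3 in p53R172H/+ tumors, against 0, 2 and 1 in p53-/- tumors. Dbp, with the widest spread, weighs most in it. On their own, Per1 and Dbp lay lower in every mutant tumor than in any p53-/- tumor. Per3, Nr1d1 and Nr1d2 each overlapped between mutant and p53-/- tumors. Cry1 and Cry2 were left out of the mean of the 5 genes. Cry1 ran against it in p53R172H/- tumors 1 and 3 (0.04 and -0.06), p53R172H/+ tumor 2 (0.35) and p53-/- tumors 1 and 3 (-0.10 and -0.05). Cry2 lay above its own mean in every p53-/- tumor. In p53R172H/- tumor 2, Dbp deviated by -0.90 while Per1 deviated by 0.13 and Nr1d1 by 0.07. Arntl deviated by 0.10, 0.56 and 0.14 in p53R172H/- tumors and by -0.03, -0.20 and -0.02 in p53R172H/+ tumors, against -0.12, -0.05 and -0.39 in p53-/- tumors. The tumor with the highest mean of the 5 genes, p53-/- tumor 3, had the lowest Arntl, but p53R172H/- tumor 2, with the highest Arntl, did not have the lowest mean.

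**Figure D4:**
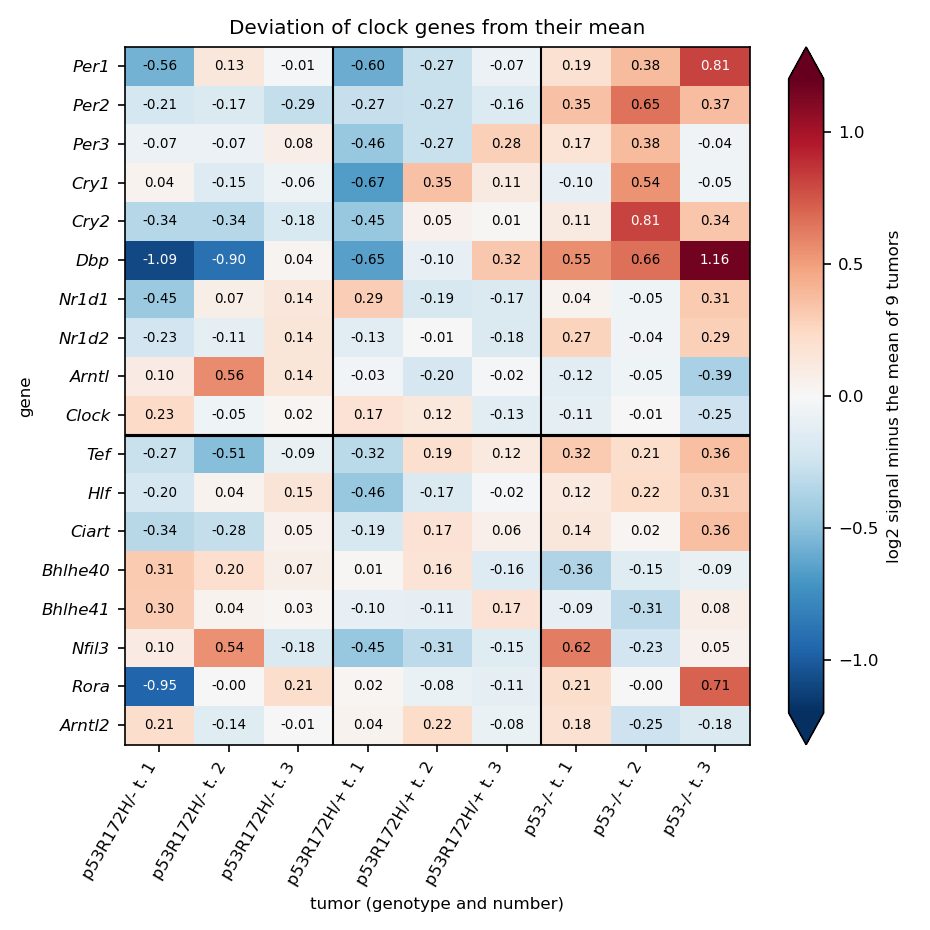
Deviation of each clock gene from its mean over the 9 tumors (log2 scale), 1 column per tumor with the p53R172H/- tumors first and the p53-/- tumors last. Per2 is below its mean in all 6 mutant tumors, whereas Dbp runs from -1.09 to 0.32 across them.

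Among the 6 mutant tumors, which all have low Per2, 0 of the other 9 clock genes had a correlation with Per2 that passed the test. Pearson's r with Per2 ran from -0.68 (Nr1d2, Spearman's rho -0.60) to 0.55 (Per3, Spearman's rho 0.43), with n = 6 and 9 relations computed. The smallest exact permutation p was 0.151 (two-sided) for Pearson's r, and the smallest Benjamini-Hochberg adjusted value was 0.683. For Dbp, Pearson's r was -0.16 and rho -0.03, with an exact permutation p of 0.776 for r and 1 for rho. Per2 spanned only 159 to 174 signal units in these tumors. As deviations from group means over all 9 tumors and 3 groups, r with Per2 was -0.83 for Nr1d2 (exact permutation p = 0.0463, adjusted 0.382) and 0.70 for Cry2 (exact permutation p = 0.231, adjusted 0.382).

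Dbp had the widest range of the clock genes, and other clock genes were set against it over all 9 tumors, a relation chosen after the values were seen. Per2 was left out of this test, since its signal chose the list. Over these 9 tumors, 5 of the 8 genes had an adjusted exact permutation p under 0.05 (two-sided). The share of all tested genes that ran this closely with Dbp is not given here, so this count has no background beside it. Per1 had r = 0.80 (rho 0.78) and Cry2 r = 0.81 (rho 0.87), each with an adjusted exact permutation p of 0.0387 for r. Clock had r = -0.77 (adjusted exact permutation p = 0.0447), and Nr1d2 (0.72) and Arntl (-0.70) each had an adjusted exact permutation p of 0.0499. Because Dbp separates p53-/- from mutant tumors, these values carry the genotype difference with them. As deviations from group means, 0 of 8 relations passed. The largest were Per1 at 0.72 (exact permutation p = 0.102) and Clock at -0.67 (exact permutation p = 0.125), each with an adjusted value of 0.407. Without the 2 tumors farthest from the median of Dbp, p53-/- tumor 3 and p53R172H/- tumor 1, 0 of 8 passed over the 7 tumors left. There r was 0.81 for Cry2, 0.55 for Per1, 0.44 for Nr1d2, -0.46 for Clock and -0.63 for Arntl.

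Further genes of the clock came from 3 lists, of transcription factors, of kinases, ubiquitin ligases and modifiers, and of rhythmic output genes. Of these genes, 34 were analysed here and 31 passed the filter on dim genes and were tested, and 0 passed the adjusted threshold in any of the 4 comparisons (limma). At an unadjusted p under 0.05, 5 were higher and 3 lower in p53R172H/- against p53-/- tumors, where 6.44% of all genes were higher and 9.16% lower. In p53R172H/+ against p53-/- tumors 1 was higher and 3 lower, where 4.75% of all genes were higher and 5.6% lower. Without overlap, 4 lay higher and 1 lower in p53R172H/- against p53-/- tumors, where 9.11% of all genes were higher and 13.8% lower. In p53R172H/+ tumors 3 lay higher and 4 lower without overlap, where 7.08% of all genes were higher and 8.86% lower. The median log2 fold change of the 31 genes was -0.05 in p53R172H/- and 0.00 in p53R172H/+ tumors, against -0.03 over all genes in each.

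Tef, a D-box activator of the same family as Dbp, was at 829, 701 and 938 signal units in p53R172H/- tumors and 800.4, 1142 and 1088 in p53R172H/+ tumors, against 1246, 1155 and 1283 in p53-/- tumors. It lay lower without overlap in both mutant groups, with a log2 fold change of -0.59 ± 0.15 (SE, limma adjusted p = 0.214) in p53R172H/- tumors and -0.30 ± 0.15 (SE, limma adjusted p = 0.519) in p53R172H/+ tumors. Hlf, the remaining member of that family, was at -0.22 ± 0.14 (SE) in p53R172H/- and -0.43 ± 0.14 (SE) in p53R172H/+ tumors. Ciart, a further repressor of CLOCK and BMAL1, was at -0.36 ± 0.15 (SE) in p53R172H/- tumors. Bhlhe40, which encodes the E-box repressor DEC1, lay higher without overlap in p53R172H/- tumors, at 1655, 1531 and 1399.5 signal units against 1041.5, 1203 and 1254 in p53-/- tumors (log2 fold change 0.39 ± 0.11 SE, limma adjusted p = 0.235). Nfil3, the gene of a D-box repressor, had a log2 fold change of -0.45 ± 0.24 (SE) in p53R172H/+ tumors and 0.01 ± 0.24 (SE) in p53R172H/- tumors.

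Among kinases and modifiers, Prkaa1 had the smallest p in each comparison. It encodes a catalytic subunit of AMPK, a kinase that marks CRY1 for breakdown. Prkaa1 was at 192, 183 and 209 signal units in p53R172H/- tumors and 247.5, 225 and 215 in p53R172H/+ tumors, against 117, 138.5 and 154.5 in p53-/- tumors. It lay higher without overlap in both mutant groups, with log2 fold changes of 0.52 ± 0.13 (SE, limma adjusted p = 0.214) and, for p53R172H/+ tumors, 0.75 ± 0.13 (SE, limma adjusted p = 0.359). Sirt1, a deacetylase that acts on BMAL1 and PER2, was at 0.41 ± 0.14 (SE) in p53R172H/- tumors. Usp2, the gene of a deubiquitinase of clock proteins that is itself rhythmic, was at -0.53 ± 0.23 (SE) in p53R172H/- tumors and -0.31 ± 0.23 (SE) in p53R172H/+ tumors.

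Of the output genes, Wee1, a cell cycle kinase with E-boxes in its promoter in mouse liver, was at -0.54 ± 0.18 (SE, limma adjusted p = 0.406) in p53R172H/+ tumors and at -0.16 ± 0.18 (SE) in p53R172H/- tumors. Fkbp5, which encodes a co-chaperone induced by glucocorticoids, was at 0.78 ± 0.32 (SE, limma adjusted p = 0.300) in p53R172H/- tumors. It was at 165, 411 and 387 signal units there, against 195, 136 and 195 in p53-/- tumors, so p53R172H/- tumor 1 overlapped with them. Alas1, the first enzyme of haem synthesis, was at 0.26 ± 0.11 (SE) in p53R172H/- tumors, and Cdkn1a, the p21 cell cycle inhibitor, at -0.21 ± 0.10 (SE). In p53R172H/+ tumors Lonrf3 was at -0.39 ± 0.17 (SE) and Klf10, a Krüppel-like factor gene, at 0.32 ± 0.15 (SE). None of these passed the test.

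Over the 9 tumors the genes whose log2 signal ran most like Per2 were Tmem63a (Pearson's r 0.98), Drap1 (0.97), Kdm5c (0.97), Fgd3 (0.95) and Fbxw4 (0.95), and those most opposite were Dph2 (-0.98), Pigh (-0.96) and Mta2 (-0.96). None of these 8 is a clock gene of the lists. Tmem63a, as an example, was at 734, 718 and 719.7 signal units in p53R172H/- tumors and 731, 735 and 754 in p53R172H/+ tumors, against 840.1, 931 and 841 in p53-/- tumors. Of the clock genes Cry2 was most like Per2 (r 0.87, ranked 126 of 12166 genes), followed by Per1 (0.75), Dbp (0.73) and Per3 (0.60), and Clock (-0.55) and Arntl (-0.41) were opposite. These values come from the same 9 tumors that separated by genotype on Per2, and are a description.

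Other measures differed between some of the genotype groups too. Of the lists given here, only salivary gland markers lay apart from p53-/- tumors over both mutant groups. The mitosis list (11 of 11 measured genes over the filter) had a mean of 8.99 to 9.22 on the log2 scale in p53R172H/- tumors and 8.65 to 8.95 in p53R172H/+ tumors, against 8.33 to 8.68 in p53-/- tumors. The immediate-early list (10 of 11 over the filter) was at 9.69 to 9.83 in p53R172H/- and 9.50 to 9.58 in p53R172H/+ tumors, against 9.25 to 9.51 in p53-/- tumors. Salivary gland markers (2 of 6 over the filter) were at 6.66 to 6.75 in p53R172H/- and 6.65 to 6.84 in p53R172H/+ tumors, against 6.85 to 6.91 in p53-/- tumors. Leukocyte markers (6 of 10 over the filter) were at 8.06 to 8.67 in p53R172H/- and 8.39 to 8.67 in p53R172H/+ tumors, against 8.05 to 8.38 in p53-/- tumors. Fibroblast markers (7 of 7 over the filter) were at 10.48 to 11.26 in p53R172H/- tumors, against 11.33 to 11.59 in p53R172H/+ tumors, and at 10.73 to 11.71 in p53-/- tumors. The 3′ to 5′ signal ratio of actin, a measure of RNA integrity, was 1.31 to 1.56 in p53R172H/- and 1.36 to 1.48 in p53R172H/+ tumors, against 1.502 to 1.69 in p53-/- tumors. The actin ratio thus overlapped between p53R172H/- and p53-/- tumors. The same ratio of Gapdh overlapped between all groups. For Gapdh it was 0.93 to 1.00 in p53R172H/- and 0.94 to 0.98 in p53R172H/+ tumors, against 0.96 to 1.03 in p53-/- tumors. The part of these measures in the Per1, Per2, Cry2, Dbp and Arntl differences was not tested. Skeletal muscle markers (13 of 13 over the filter) were high in p53R172H/- tumors 2 and 3, at 11.05 and 9.92, against 6.35 to 8.54 in the other 7 tumors. With the muscle mean as a covariate, the log2 fold change in p53R172H/- against p53-/- tumors was -0.79 for Per1, -0.70 for Cry2, -1.60 for Dbp and 0.37 for Arntl.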

How the data were processed

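RNA of 9 tumors was turned into biotin-labelled cRNA and read on Affymetrix arrays, per the labels' protocols. Each deposited value is a linear signal intensity of a probe set on an array, made by the authors with MAS5 per the submitters' processing notes, whose version and scaling are not given. Probe sets were named from the platform's annotation, and 34945 had a single symbol. The targeted gene is not reported here.

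Deposited intensities below the 20th percentile (52.6 signal units) were raised to it, which touched 0.0758% of tested values, and then put on the log2 scale as they stood. The probe set of highest mean stood for its gene. Genes dimmer than the median non-control probe set (113 signal units) were not tested, leaving 12167 of 18193 genes, with all 10 clock genes among them. Alone, 18 of the 23 clock probe sets passed this filter. Group means were estimated from all 9 arrays in a single linear model with limma 3.58.1 (R 4.3.3) and a variance trend, and p-values were adjusted by Benjamini-Hochberg over the genes tested. Fold changes are on the floored log2 scale, mutant over p53-/- or p53R172H/- over p53R172H/+. Correlations were tested by exact permutation (numpy 2.4.6), two-sided, with the ranks for Spearman's rho from scipy 1.17.1. The fit was tested on simulated data. The number of arrays limits the precision, and 3 arrays against 3 cannot give an exact permutation p under 0.1. Every pair of arrays differed, by a root mean square of 0.283 to 0.545 on the log2 scale.

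The members, gene lists and tests were chosen with earlier results of these data known. Named were all clock genes with every probe set, up to 3 genes with the smallest p per clock list and comparison, and the 5 genes most like and 3 most opposite to Per2. Of those from the lists, the genes with the smallest p between the mutant groups are given under the other observations. Tumor numbers were checked as a pairing: over 9 same-numbered pairs, the correlation of deviations from group means ran from -0.50 to 0.24, with 4 pairs over 0.1, so the numbers were taken as names. Alternatives were other floors, quantile normalization, no filter, other choices of probe set, no variance trend, the tumor number as a block, muscle content as a covariate and each array left out in turn.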

Additional observations from a re-analysis of the deposited data

How the results depend on the processing

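The number of clock genes called, and of other clock pathway genes called, was 0 in all 4 comparisons under each of the 18 alternatives run for each count, and the smallest limma adjusted p of a clock gene other than Per2 among the alternatives was 0.0641, for Dbp in p53R172H/- tumors with muscle content as a covariate. This includes the fit with the tumor number as a replicate block, where 0 clock genes and 0 other clock pathway genes were called in each comparison, and each array left out (0 to 0 calls). In p53R172H/-, p53R172H/+ and both mutant groups against p53-/- tumors, Per1, Per2, Per3, Cry2, Nr1d2, Dbp and Arntl kept their sign under all alternatives run. The list was chosen on Per2, so the sign of Per2 there is a description. Over both mutant groups, Dbp ran from -1.41 to -1.003, Per2 from -1.07 to -0.59, Per1 from -0.90 to -0.51 and Cry2 from -0.78 to -0.43. Of 750 alternative values of single results, 25 changed sign, and the cause was not tested.

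Against p53-/- tumors, Cry1 ran with 1 array left out from -0.30 to 0.0193 in p53R172H/- tumors, from -0.41 to 0.10 in p53R172H/+ tumors and from -0.31 to 0.0126 over both, and Nr1d1 from -0.29 to 0.0013 in p53R172H/- tumors. With the probe set of largest variance, Clock was at -0.0063 in p53R172H/- tumors. Between the mutant groups, values with 1 array left out ran from -0.012 to 0.0493 for Per2, from -0.0304 to 0.34 for Per3, from -0.29 to 0.22 for Cry1, from -0.0806 to 0.0697 for Clock, from -0.16 to 0.13 for Nr1d1 and from -0.0656 to 0.12 for Nr1d2. With the probe set of largest variance, Per3 was at -0.27, Clock at -0.25 and Nr1d2 at -0.49 there, and Clock was at -0.0142 after quantile normalization. With muscle content as a covariate Per1 was at -0.11 and Nr1d2 at -0.0181, and without p53R172H/- tumors 2 and 3 together Per1 was at -0.25 and Nr1d2 at -0.13.

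The count of 5 of 8 genes correlated with Dbp, added after seeing the data, was 3 after quantile normalization, 1 with Spearman's rho, 0 within groups and 0 without the 2 farthest tumors. With 1 tumor left out it ran from 0 to 4, and it was 0 without p53R172H/- tumor 1 or 3, p53R172H/+ tumor 1 or p53-/- tumor 1, 1 without p53-/- tumor 3, 2 without p53R172H/- tumor 2 and 3 without p53R172H/+ tumor 3. Over all genes, 22 were called in p53R172H/- against p53-/- tumors and 4 over both mutant groups with muscle content as a covariate, and 1 over both without p53R172H/+ tumor 3, 0 of them clock genes. Signal near the floor limits the dim probe sets of Per2, Per3 and Arntl.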

Other observations

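Some rhythmic and glucocorticoid-responsive genes of the output list varied widely within the p53R172H/- group. Fmo2, a flavin monooxygenase gene, was at 86.9, 1766 and 646.5 signal units in p53R172H/- tumors and 366, 736 and 1028 in p53R172H/+ tumors, against 685.5, 1002 and 402 in p53-/- tumors. Klf9, a Krüppel-like factor gene induced by glucocorticoids, was at 312, 944 and 705 in p53R172H/- tumors and 409, 391 and 632 in p53R172H/+ tumors, against 454, 447 and 699 in p53-/- tumors. Tsc22d3, the gene of the glucocorticoid-induced leucine zipper, was at 112, 540.2 and 303 in p53R172H/- tumors and 139, 203 and 316 in p53R172H/+ tumors, against 273, 301 and 457 in p53-/- tumors. In p53R172H/- tumors the skeletal muscle list mean ran in the same order as Fmo2, Klf9 and Tsc22d3, at 6.56, 11.05 and 9.92 on the log2 scale. Its part in their spread was not tested. Rora, of the transcription factor list, encodes an activator of ROR elements. It was at 1368 in p53R172H/- tumor 1 and at 2446 to 4318 in the other 8 tumors. The 4 genes were each lowest in p53R172H/- tumor 1, where Dbp was also lowest. These genes were picked after their values were seen.

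Between p53R172H/- and p53R172H/+ tumors, the genes of the clock lists with the smallest p were Nfil3 (log2 fold change 0.46), Tef (-0.29) and Bhlhe40 (0.19) of the transcription factors. Of the kinases and modifiers they were Prkaa1 (-0.24), Gsk3b (-0.18) and Btrc (0.18), and of the output genes Cdkn1a (-0.22), Dtx4 (0.32) and Wee1 (0.38). All 9 had a limma adjusted p of 0.949.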
